A study of Homo sapiens with 16 samples.

Results

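The nuclear tRNA genes were examined in chromatin immunoprecipitation sequencing (ChIP-seq) of HCT116, a human line established from colon cancer. Members were all genes of type tRNA on chromosomes 1 to 22 and X in the RefSeq gene table of hg38, and they numbered 443 of the 59094 genes of the table on these chromosomes. They are 70 to 108 bp long, with a median of 73 bp, and 98 lie on chromosome 1, 155 on chromosome 6 and 190 on other chromosomes. A gene was said to have a peak in a list when a deposited peak overlapped its body extended by 1000 bp on each side. The windows of neighbouring genes overlap in places, so 170 genes share a window with another and the 443 genes form 339 separate loci of up to 5 genes. Symbols give the amino acid and anticodon (TRA-AGC is an alanine gene with anticodon AGC), then a number for the sequence variant and one for the copy. The table gives no strand, exons or introns, and 19 genes share 5 unnumbered symbols.

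The libraries came from HCT116 cells with no shRNA named in the label (called unmodified), from cells labelled CTR (read as the control shRNA, shCtrl) and from cells with an shRNA against ARID1A (shARID1A). All 3 states are the same cell line, and neither the shRNA sequences nor the vector and number of clones were stated. Antibodies were against ARID1A (unmodified and shCtrl), H3K9me3 and TRIM28 (all 3 states) and SETDB1 (shCtrl and shARID1A). Each of the 10 precipitated libraries has 1 peak list called against input and 1 called against IgG, and each group of state and antibody holds 1 library. The study set out to examine how ARID1A and heterochromatin are related. With 1 library per group no difference between states can be tested, and all intervals below cover counting error over genes only.

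Lists differed greatly in length. Input lists held between 11374 peaks (unmodified H3K9me3) and 203714 peaks (shARID1A TRIM28), and IgG lists between 23293 and 314688. All lists reached an unadjusted p of about 0.05, so many of their peaks are weak. Peaks with a deposited q of at most 0.05 are called strong, and an input list held between 15 (unmodified H3K9me3) and 37702 (shCtrl SETDB1) of them. The depletion of ARID1A was not checked, since no ARID1A list of shARID1A cells was used here, and libraries carry the names of their labels. Outside the tRNA windows, 82.3% of the strong peaks of the library labelled shCtrl H3K9me3 met a peak of the library labelled shCtrl SETDB1, and 15.1% met one of shARID1A H3K9me3. Of the strong shARID1A H3K9me3 peaks, 65.3% met shCtrl SETDB1, 19.1% shARID1A SETDB1 and 8% shCtrl H3K9me3. Zinc finger genes of chromosome 19 are known to carry H3K9me3, and their share with a peak was 11.6% in shCtrl H3K9me3 against 15.9% of the other genes of that chromosome. In shARID1A H3K9me3 it was 46% against 34.4%, and in unmodified H3K9me3 14% against 2.08%. In shCtrl SETDB1 it was 54.8% against 47%, and in shARID1A SETDB1 30.4% against 32.3%. The H3K9me3 and SETDB1 results below rest on labels that these overlaps do not settle.

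tRNA genes are read by RNA polymerase III. Their promoter lies inside the gene, as an A box and a B box, which are bound by TFIIIC, and TFIIIC in turn brings TFIIIB and the polymerase. The histone methyltransferase SETDB1 places H3K9me3, a mark of heterochromatin, and is known to act with the corepressor TRIM28. ARID1A belongs to the SWI/SNF remodeller, which moves nucleosomes. tRNA genes and their TFIIIC sites are known in several organisms as points where heterochromatin stops.

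The sequence of 14 tRNA genes could be read, because they lie whole within the RefSeq window of 250 bases before to 50 after the start of a neighbouring gene (GRCh38.p14). They show what the counted regions are, a short gene with the B box within it. All 14 held the B-box core GTTCNANNC, which is in 7.48% of the 35116 RefSeq windows of 300 bp on either strand, and 9 held GGTTCGA, which is in 0.86% of them and overlaps the start of the longer motif. The match is a description and no measurement of binding. Below, 8 genes are printed 5′ to 3′ on the strand that holds the motif, with GTTCNANNC in capitals, from the most to the least enriched in shCtrl SETDB1.
TRR-ACG2-1: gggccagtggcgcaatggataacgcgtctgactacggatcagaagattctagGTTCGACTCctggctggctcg
TRI-AAT8-1: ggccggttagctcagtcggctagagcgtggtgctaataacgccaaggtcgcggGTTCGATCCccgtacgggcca
TRT-TGT6-1: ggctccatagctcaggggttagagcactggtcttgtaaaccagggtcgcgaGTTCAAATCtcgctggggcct
TRH-GTG1-3: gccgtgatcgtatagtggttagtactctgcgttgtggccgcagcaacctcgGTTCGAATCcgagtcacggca
TRF-GAA1-5: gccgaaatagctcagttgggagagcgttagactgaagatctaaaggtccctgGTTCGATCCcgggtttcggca
TRP-TGG3-2: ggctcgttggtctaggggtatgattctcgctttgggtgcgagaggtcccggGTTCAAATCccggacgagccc
TRN-GTT4-1: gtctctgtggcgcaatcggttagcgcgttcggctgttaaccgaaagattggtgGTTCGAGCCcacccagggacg
TRA-AGC2-2: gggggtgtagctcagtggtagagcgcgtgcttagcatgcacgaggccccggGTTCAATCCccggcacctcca

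TRR-ACG2-1 (arginine, chr3:45688999-45689071) had a shCtrl SETDB1 peak of 10.9-fold enrichment with its summit inside the gene, and peaks in shCtrl ARID1A (3.01-fold) and unmodified ARID1A (2.46-fold). Fold enrichment is the authors' deposited value of each peak over its local background. TRI-AAT8-1 (isoleucine, chr6:27668583-27668656) had 7.44-fold in shCtrl SETDB1 and 2.42-fold in shARID1A H3K9me3, with both summits inside the gene. TRT-TGT6-1 (threonine, chr5:181191687-181191758) had 6.29-fold in shCtrl SETDB1 and 4.11-fold in shARID1A H3K9me3. TRF-GAA1-5 (phenylalanine, chr13:94549650-94549722) was 1 of the 17 genes outside the array described below with a shARID1A SETDB1 peak, at 3.59-fold. It had 4.50-fold in shCtrl SETDB1 and 6.33-fold in shARID1A H3K9me3. TRP-TGG3-2 (proline, chr14:20684016-20684087) has the same sequence as TRP-TGG3-5 on chromosome 16, and they had 4.22-fold and 4.41-fold in shCtrl SETDB1, while of the 2 only TRP-TGG3-5 had a shARID1A H3K9me3 input peak, at 2.05-fold. TRH-GTG1-3 (histidine, chr1:148281365-148281436) is identical to TRH-GTG1-9 on chromosome 15, with 5.45-fold and 4.18-fold in shCtrl SETDB1. TRN-GTT4-1 (asparagine, chr1:16889677-16889750) holds both motifs and had no peak in any input list. TRA-AGC2-2 (alanine, chr6:28863685-28863756) holds the B-box core and had no peak in any of the 20 lists.

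Among the 10 input lists, that of SETDB1 in shCtrl cells had peaks at the most tRNA genes. It had a peak at 313 of 443 genes, 70.7% (95% exact interval 66.2 to 74.9, in shCtrl SETDB1), against a background of 10.5% for the 6542 other genes of at most 200 bp counted with the same windows. Of these genes 294 (66.4%) had a strong peak, against a background of 6.42%. Among the 87 tRNA pseudogenes of the table the share was lower, at 15 genes (17.2%). The IgG list had a peak at 334 genes, against a background of 14.6%. Over genes with a peak the fold ran from 2.43 to 18.1, with a median of 7.09. The median fold of a peak at tRNA genes was 5.83 against 3.48 for all peaks of the list, and their median width was 537 bp against 324 bp. The highest value was at TRQ-TTG3-3 (glutamine, chr6:27795861-27795932), 18.1-fold. TRS-TGA4-1 (serine, chr6:27505828-27505909) followed at 16.2-fold and TRN-GTT2-2 (asparagine, chr1:161428077-161428150) at 15.6-fold. All 3 had their summit inside the tRNA gene. They ranked within a list whose highest peak anywhere was 40.8-fold, and 27 of its 1000 peaks of highest fold lay at tRNA genes.

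**Figure D1:**
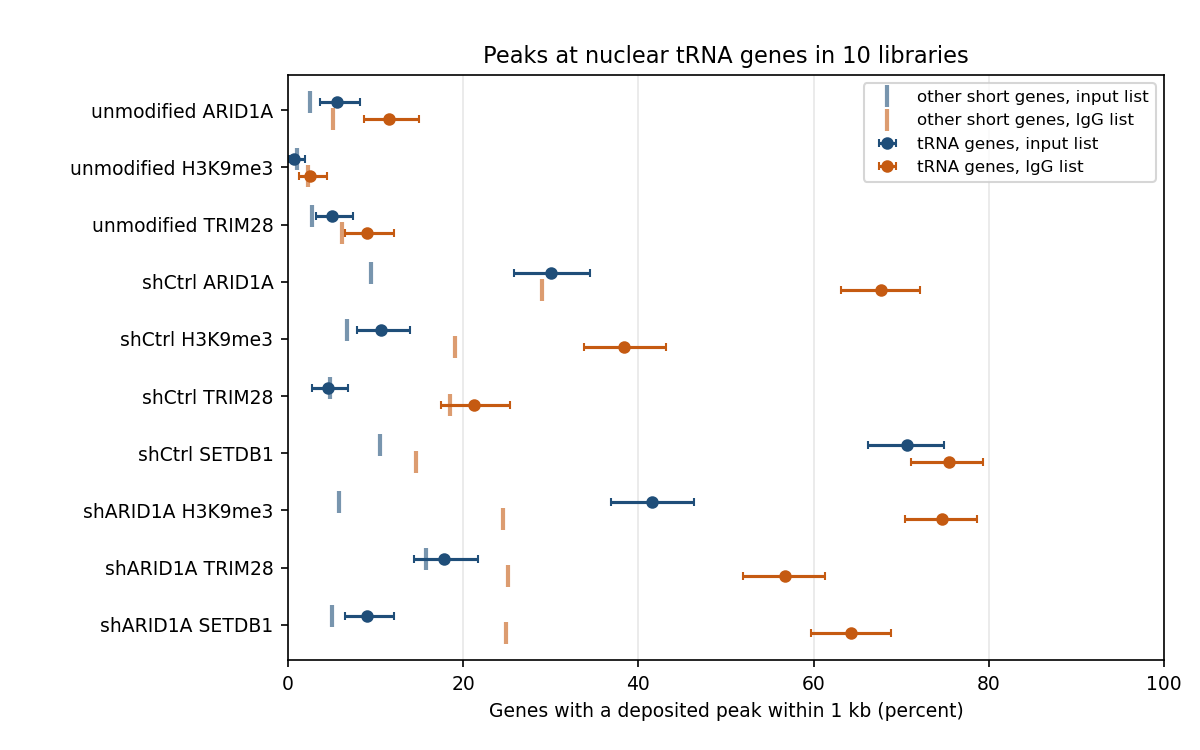
Percent of the 443 tRNA genes with a peak within 1 kb in the input list (blue points) and the IgG list (orange points) of each library, with 95% exact intervals, and the same percent for 6542 other genes of at most 200 bp (vertical ticks). In the input lists shCtrl SETDB1 stands at 70.7% and shARID1A SETDB1 at 9.03%, while the TRIM28 input lists of shCtrl and shARID1A cells lie near their ticks.

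In shARID1A cells the SETDB1 input list had a peak at 40 tRNA genes, 9.03% (6.53 to 12.1 in shARID1A SETDB1), against a background of 5.04%. Strong peaks were at 26 of them, 5.87% against 0.718%. This is 61.6 points lower than in shCtrl (interval −65.4 to −56.6), with 297 genes having a peak only in shCtrl, 24 only in shARID1A and 16 in both. At all 16 shared genes the fold was higher in shCtrl, with a median of 5.95 against 3.23. Over all peaks of these input lists the median fold was 3.48 in shCtrl and 2.95 in shARID1A. TRQ-TTG3-3, TRS-TGA4-1 and TRN-GTT2-2 had no peak in the shARID1A input list, and in the shARID1A IgG list they had 2.08-fold, 2.21-fold and 1.82-fold.

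The size of this difference depended on the control. Against IgG, shARID1A SETDB1 had peaks at 285 tRNA genes, with a background of 24.9%, so the difference from shCtrl was −11.1 points (−15.3 to −6.25). With strong peaks of the IgG lists only, an alternative added after the data were seen, 308 genes in shCtrl stood against 71 in shARID1A. These are 69.5% and 16% of tRNA genes, a difference of −53.5 points. The background also fell, from 9.28% in shCtrl to 2.8% in shARID1A. Among the 251 genes with a peak in both IgG lists, the fold was higher in shCtrl at 246, with a median of 9.59 against 3.03. Over all peaks of these IgG lists the median fold was also higher in shCtrl, 3.47 against 2.41. Other genes with a peak in both lists were not compared, so the part particular to tRNA genes is not known. The shARID1A SETDB1 input list is shorter (39245 peaks, 1363 strong) than the shCtrl list (79404 peaks, 37702 strong), and the part of list length and library quality in the difference was not tested. With the 10000 peaks of highest −log10 q from each list, 250 genes stood against 33, and no background was counted for this setting.

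In shCtrl cells but not in shARID1A cells, by both the input and the IgG list, SETDB1 peaks were found at 68 tRNA genes (15.3%, background 3.67%), of which 42 are on chromosomes 1 and 6. The highest of them were TRV-AAC1-3 (valine, chr5:181169610-181169682) at 11.5-fold, TRT-AGT6-1 (threonine, chr6:27162271-27162344) at 11.4-fold, and the adjacent genes TRL-CAA4-1 (leucine) and TRE-CTC2-1 (glutamate) at chr1:248873855-248874319, which share a peak of 10.9-fold. The pattern of peaks in shCtrl only needs a peak in both shCtrl lists, which 311 tRNA genes had (70.2%). Of the 6542 other short genes, 687 had a shCtrl SETDB1 input peak (10.5%) and 240 showed the pattern. The 15.3% and 3.67% therefore do not compare the rate of loss among genes with a peak. The opposite pattern, peaks in shARID1A only, was seen at 21 genes (4.74%, background 2.51%), and all 21 lie on chromosomes 1 and 6. Most lie in the 1q23.3 array described below, whose 23 genes all had a peak in both shARID1A SETDB1 lists. In the shCtrl SETDB1 lists 0 of the 23 had an input peak and 3 an IgG peak. By the input lists alone, 1 of the 420 genes outside the array had a SETDB1 peak only in shARID1A.

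Of the 40 genes with a shARID1A SETDB1 input peak, 23 lie in 1 tandem array, picked out after the values were seen. This array at 1q23.3 (chr1:161440171-161471205) holds 23 tRNA genes in 5 loci, from TRG-TCC4-1 to TRL-CAG1-5, in repeated units of glutamate, glycine, aspartate and leucine genes. All 23 had a peak in the shARID1A SETDB1 input list, from 3.34-fold to 9.06-fold with a median of 6.02. No gene of the array had one in the shCtrl SETDB1 input list, and 3 had one in its IgG list, at 1.79-fold to 4.30-fold. The block of tRNA genes around the array (chr1:161399700-161612029) holds 9 more genes, of which 8 had a shCtrl SETDB1 input peak. TRG-GCC4-1 had no peak in either input list. TRV-CAC1-1 had 8.65-fold, TRE-TTC4-2 9.95-fold and TRN-GTT2-2 15.6-fold in shCtrl SETDB1. TRL-CAG1-6 and TRG-TCC2-6 beyond the other end share a peak of 8.12-fold. None of these 5 genes had a shARID1A SETDB1 input peak, and their shARID1A SETDB1 IgG values were 1.82-fold to 2.76-fold. Outside the array 17 of 420 genes had a shARID1A SETDB1 peak (4.05%), below the background of 5.04%. In shCtrl 313 had one (74.5%), a difference of −70.5 points. In the IgG lists 262 genes outside the array had a peak in shARID1A SETDB1 and 331 in shCtrl SETDB1.

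The same array held the highest tRNA peaks of other lists. In shARID1A TRIM28 it had peaks at 23 of 23 genes and in shARID1A H3K9me3 at 20, with the highest values of 10.3-fold and 11.2-fold at TRE-CTC1-3 (glutamate, chr1:161454608-161454679), a gene that also had the highest shARID1A SETDB1 value, 9.06-fold. In shCtrl ARID1A 22 genes had a peak, and the 6.65-fold peak at TRE-CTC1-5 (glutamate, chr1:161469399-161469470) was the highest of that whole input list. All 5 strong shCtrl ARID1A peaks at tRNA genes, of 43 strong peaks in the list, lie in the array. The input lists of unmodified ARID1A, H3K9me3 and TRIM28 and of shCtrl H3K9me3 and TRIM28 had no peak there. The IgG lists of these libraries had peaks at 3, 1, 9, 7 and 2 of the 23 genes, in that order. Peaks of the array were up to 1969 bp wide in shARID1A SETDB1, so 1 peak serves up to 4 genes. The symbols give the repeated genes the same sequence variant (TRE-CTC1-2 to TRE-CTC1-5, for example), and the placement of reads that fit several copies was not stated. Its part in these peaks was not tested.

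**Figure D2:**
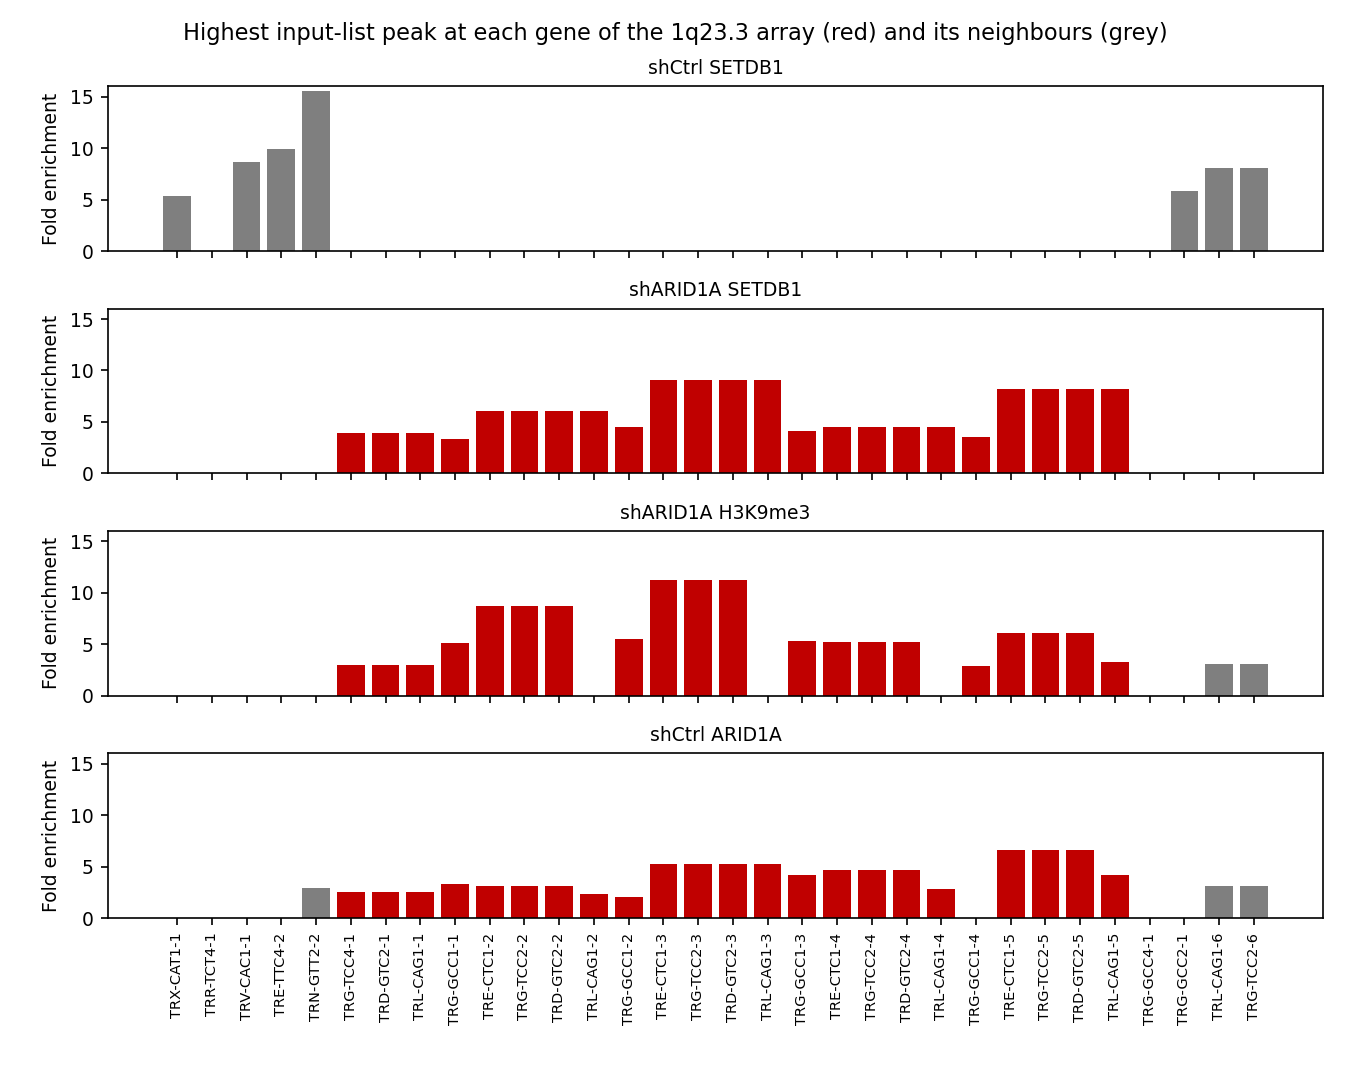
Fold enrichment of the highest input-list peak within 1 kb of each of the 23 genes of the 1q23.3 array (red) and of the 5 tRNA genes before and the 4 after it in chromosome order (grey), in 4 libraries, where a missing bar means no peak. The array is empty in shCtrl SETDB1 and filled in shARID1A SETDB1, where the neighbours are empty, while all neighbours but TRR-TCT4-1 and TRG-GCC4-1 have a bar in shCtrl SETDB1. The first 2 neighbours, TRX-CAT1-1 and TRR-TCT4-1, lie outside the block. The array and its ends were chosen after the values were seen, so its contrast with the neighbours is not independent of that choice.

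H3K9me3 differed in the other direction. The unmodified input list had a peak at 3 tRNA genes (0.677%, background 0.994%), and none strong (background 0%). The shCtrl list had 47 (10.6%, background 6.7%), of which 3 were strong (0.677% of genes, background 0.52%). The shARID1A list had 184 (41.5%, background 5.79%), with strong peaks at 82 (18.5%, background 1.8%). No gene had a peak in both the unmodified and the shCtrl input list, which says little with 3 genes in unmodified cells. In the IgG lists of these states 3 genes were in both. shCtrl exceeded unmodified cells by 9.93 points (7.55 to 11), and its list holds 92063 peaks against 11374. With the 10000 best peaks of each list this difference was 0.677 points (−0.816 to 1.73) and with strong peaks 0.677 (−0.281 to 0.677), and both intervals include 0. shARID1A exceeded shCtrl by 30.9 points (26.5 to 34.2), with 156 genes only in shARID1A, 19 only in shCtrl and 28 in both. Against IgG the 3 lists had 11, 170 and 331 genes, with backgrounds of 2.31%, 19.1% and 24.5%. Without the array the difference was 27.9 points. With the 10000 best peaks of each list it was 12.6 points (9.89 to 14.2).

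The 3 genes of unmodified H3K9me3 were TRH-GTG1-4 at 2.73-fold, TRC-GCA15-1 at 2.26-fold and TRI-TAT2-2 at 2.10-fold. In shCtrl H3K9me3 the highest were TRA-CGC3-1 (alanine, chr2:156400769-156400840) at 3.97-fold with its neighbour TRG-GCC2-2 in the same peak, TRK-TTT3-5 (lysine, chr17:8119155-8119227) at 3.73-fold, and TRL-TAA2-1 (leucine, chr6:27721119-27721201) at 3.72-fold. In shARID1A H3K9me3 the highest outside the array was TRF-GAA1-5 at 6.33-fold. At the 28 genes with a peak in both input lists the values of the states lay close, with medians of 2.59 in shCtrl and 2.76 in shARID1A, and shARID1A was higher at 17. At the 158 genes with a peak in both IgG lists the medians were 2.73 and 4.73, and shARID1A was higher at 138. Over all peaks the medians were 2.76 in shCtrl and 3.15 in shARID1A for the input lists, and 2.53 in both IgG lists. Peaks in both control lists of shARID1A and neither of shCtrl were found at 88 genes (19.9%, background 2.95%), and the reverse at 0 genes (background 2.54%).

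The genes with H3K9me3 in shARID1A cells were compared with those with SETDB1 in shCtrl cells. Of the 184 genes, 160 (87%) had a shCtrl SETDB1 peak, beside 70.7% of all tRNA genes, and the 160 are 51.1% of the 313. The array holds 20 of the 184 genes and had no shCtrl SETDB1 input peak. Outside the array the count was 160 of 164, beside 74.5% of all tRNA genes outside it. In the IgG lists, with the array included, the share was 89.1%, beside 75.4% of all tRNA genes. These lists come from different states and have different controls. Strong peaks were at 294 genes in shCtrl SETDB1 and 82 in shARID1A H3K9me3, and at no more than 26 in any other input list. A choice of genes strong in at least 2 lists therefore favours this pair, and the next count is no evidence of co-occurrence. Of the 88 genes with strong peaks in at least 2 input lists, 20 are in the array and 68 outside, and 65 of the 68 had strong peaks in both of these libraries. Examples are TRC-GCA1-1 (cysteine, chr7:149310190-149310261), with 14.2-fold in shCtrl SETDB1 and 3.79-fold in shARID1A H3K9me3, and TRC-GCA13-1 (cysteine, chr7:149355675-149355746), with 12.8-fold and 3.09-fold. In both the shARID1A H3K9me3 summit lay inside the gene. All 47 genes with a shCtrl H3K9me3 peak also had a shCtrl SETDB1 peak, but these 2 lists share their input. Whether this follows from the antibodies or from the labels was not tested.

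In the input lists of shCtrl and shARID1A cells TRIM28 was near its background. Unmodified TRIM28 had 22 genes (4.97%, background 2.72%), shCtrl TRIM28 20 (4.51%, background 4.85%) and shARID1A TRIM28 79 (17.8%, background 15.7%). Strong peaks were at 0 genes in unmodified (background 0%) and shCtrl TRIM28 (background 0%) and at 20 in shARID1A TRIM28 (4.51%, background 0.642%), 17 of them in the array described above. The IgG lists had 40, 94 and 251 genes, with backgrounds of 6.16%, 18.5% and 25.1%. The shCtrl minus unmodified difference was −0.451 points, with an interval (−3.34 to 2.51) that includes 0. The shARID1A minus shCtrl difference was 13.3 points (9.31 to 16.5), and 8.57 points without the array. The list of shARID1A TRIM28 is 203714 peaks long against 70447 in shCtrl, and the background share was 15.7% against 4.85%. TRIM28 peaks in both control lists of shARID1A only were found at 54 genes (12.2%, background 8.56%) and of shCtrl only at 4 (0.903%, background 2.2%). Many of the 54 lie in the array, whose 23 genes all had a peak in both shARID1A TRIM28 lists. In shCtrl TRIM28 0 of the 23 had an input peak and 2 an IgG peak. Outside the array the shARID1A TRIM28 input share was 13.3%, below the background of 15.7%. In shCtrl TRIM28 the highest genes were TRC-GCA1-1 (cysteine) at 4.27-fold, TRV-CAC4-1 (valine, chr1:143803994-143804066) at 3.60-fold and TRC-GCA21-1 (cysteine) at 3.01-fold, and in unmodified TRIM28 they were TRS-AGA2-2 (serine, chr6:27478812-27478893) at 3.37-fold, with TRY-GTA6-1 (tyrosine) and TRE-CTC1-7 (glutamate) both at 2.90-fold. The 4 genes with TRIM28 in shCtrl only are TRS-AGA5-1 at 2.98-fold, TRQ-TTG3-3 at 2.53-fold, TRA-AGC14-1 at 2.44-fold and the unnumbered alanine gene at chr6:26771080-26771152 at 2.42-fold.

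ARID1A was found at 25 tRNA genes in unmodified cells (5.64%, background 2.55%) and at 133 in shCtrl cells (30%, background 9.52%). Strong peaks were at 0 genes in unmodified ARID1A (background 0.0764%) and at 12 in shCtrl ARID1A (2.71%, background 0.0611%). The difference was 24.4 points (21 to 26.6), with 16 genes in both. The IgG lists had 51 and 300 genes, with backgrounds of 5.15% and 29%. The shCtrl input list holds 108926 peaks against 29576 in unmodified cells. In unmodified ARID1A the highest genes were the pair TRG-GCC2-2 and TRA-CGC3-1 on chromosome 2, which share a peak of 3.39-fold, and in shCtrl ARID1A the same pair had 5.02-fold, the highest outside the array. TRE-CTC1-7 (glutamate, chr6:125780247-125780318) had 3.17-fold in unmodified and 2.73-fold in shCtrl ARID1A. TRA-TGC3-2 (alanine, chr12:124921755-124921826) was next in unmodified ARID1A, at 2.92-fold. The 2 libraries were called against different controls, and the cells of the 2 states differ in shRNA, so these cannot be told apart.

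**Figure D3:**
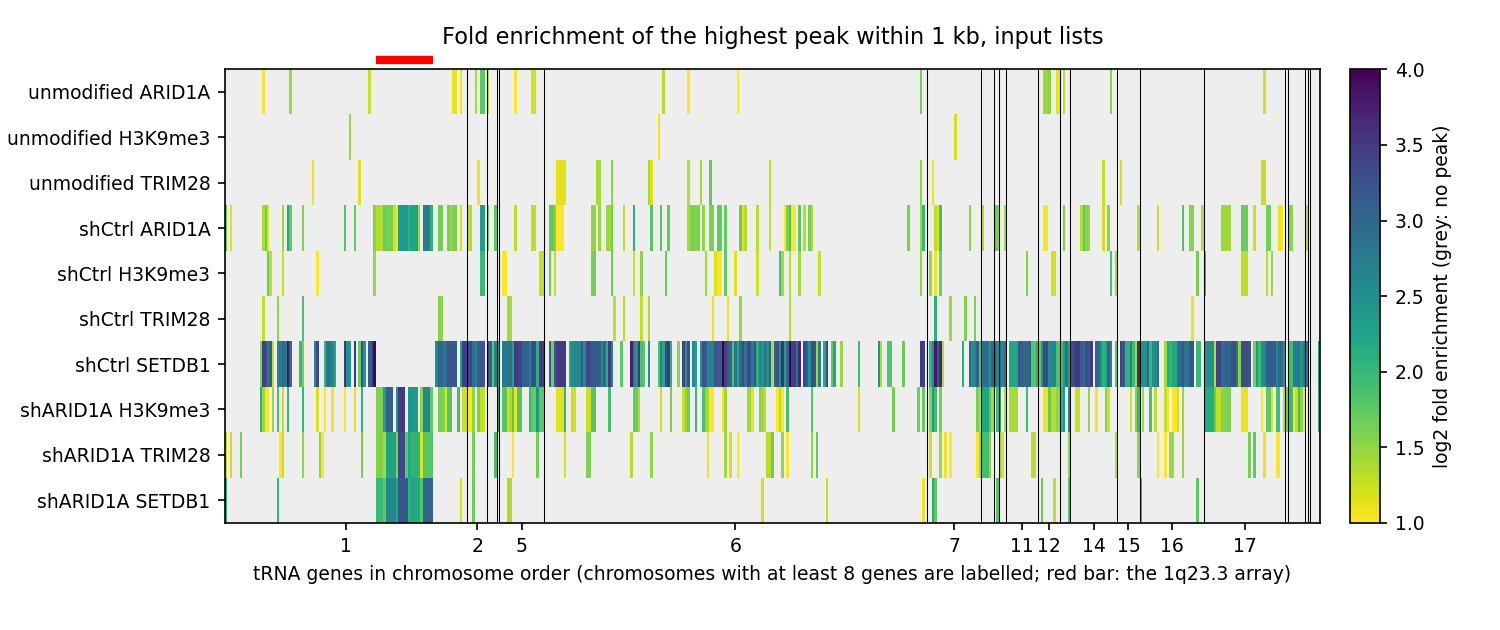
log2 fold enrichment of the highest input-list peak within 1 kb of each of the 443 tRNA genes (columns, in chromosome order) in the 10 libraries (rows), where grey means no peak and the red bar marks the 23 genes of the 1q23.3 array. shCtrl SETDB1 is filled along most chromosomes with gaps on chromosomes 1 and 6.

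Across the 10 input lists, 86 genes had no peak, 89 had one in 1 list, 111 in 2, 84 in 3, 63 in 4, 9 in 5 and 1 in 6. That gene was TRC-GCA1-1, with 2.43-fold in shCtrl ARID1A, 2.09-fold in shCtrl H3K9me3, 4.27-fold in shCtrl TRIM28, 14.2-fold in shCtrl SETDB1, 3.79-fold in shARID1A H3K9me3 and 3.29-fold in shARID1A SETDB1. All 9 genes with a peak in 5 lists had one in shCtrl SETDB1, from 3.04-fold to 12.8-fold, and none had one in the shARID1A SETDB1 input list. Among them were TRQ-CTG1-2 (glutamine, chr6:27519529-27519600) with 11-fold in shCtrl SETDB1, TRG-CCC1-1 (glycine, chr1:16545939-16546009) with 11.1-fold and TRR-TCT1-1 (arginine, chr1:93847573-93847657) with 8.04-fold. In all 20 lists together 33 genes had no peak, of which 20 are on chromosome 6 and 8 carry alanine.

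The 253 tRNA genes on chromosomes 1 and 6, where the large clusters are, were set against the 190 elsewhere. In shCtrl SETDB1 58.9% of the first had a peak and 86.3% of the second, a difference of −27.4 points (Newcombe interval −34.9 to −19.3). It was −42.4 points for chromosome 1 alone (43.9%) and −17.9 for chromosome 6 alone (68.4%), −21.5 without the array and −23.7 in the IgG list. In shARID1A H3K9me3 the shares were 34% and 51.6%, a difference of −17.6 points (−26.5 to −8.29). It was −6.68 (−18.5 to 5.45) for chromosome 1 alone and −6.09 (−18.2 to 6.05) for genes with no other gene in the window, both with 0 in the interval, and −24.5 (−34 to −14.2) for chromosome 6 alone. In the opposite direction, shCtrl ARID1A had 34% against 24.7%, 9.26 points (0.63 to 17.5), and shARID1A SETDB1 11.5% against 5.79%, 5.67 points (0.232 to 10.8). Without the array these were 3.09 points (−5.43 to 11.4) and −3.18 points (−7.69 to 0.714), and in the IgG lists −15.1 and −19.1 points. In the 3 unmodified libraries and in shCtrl H3K9me3, shCtrl TRIM28 and shARID1A TRIM28, the interval of the difference included 0.

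Within these chromosomes the clusters were unlike. Blocks of tRNA genes with gaps of at most 200000 bp were formed after the values were seen. On chromosome 6 the block of 100 genes at chr6:26286526-27902978 had a shCtrl SETDB1 peak at 84 (84%, interval 75.3 to 90.6), and the block of 43 genes at chr6:28474552-28989083 at 19 (44.2%, 29.1 to 60.1). In shARID1A H3K9me3 they had 37 and 3 genes, and in shCtrl ARID1A 38 and 4. In the first block alanine genes had a shCtrl SETDB1 peak at 3 of 12, and genes of other amino acids at 81 of 88. In the second the counts were 6 of 15 and 13 of 28. On chromosome 1 none of the 11 genes at chr1:350249-1133792 had a shCtrl SETDB1 peak. By contrast all 18 genes at chr17:8119155-8227064, all 17 at chr5:181097070-181222467 and all 8 at chr11:59550629-59566452 had one, with shARID1A H3K9me3 peaks at 14, 14 and 5 of them. On chromosome 7 the cysteine-rich block of 19 genes at chr7:149310190-149707740 had 10. The part of read placement among near-identical copies in these differences was not tested.

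By amino acid, among the classes of at least 8 genes, shCtrl SETDB1 had peaks at all 8 initiator methionine genes, which start translation, at 19 of 20 proline and 19 of 20 threonine genes (95% each), and at 24 of 26 arginine and 24 of 26 serine genes (92.3% each). Alanine was lowest with 15 of 38 (39.5%, 24 to 56.6), followed by asparagine with 11 of 26 (42.3%) and glutamate with 9 of 20 (45%). The interval of proline was 75.1 to 99.9, but these classes were picked by their values, so their contrast is no test. The low alanine share came from chromosome 6, where 9 of 31 alanine genes had a peak, and the low asparagine share from chromosome 1, where 7 of 22 had one. All 8 aspartate genes outside the array had a shCtrl SETDB1 peak, and none of the 5 within it. The initiator methionine genes had 5.16-fold to 11.2-fold in shCtrl SETDB1, no shARID1A SETDB1 input peak, and shARID1A H3K9me3 peaks at 4 of 8.

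Aspartate had the highest share in shCtrl ARID1A (9 of 13), shARID1A H3K9me3 (9 of 13), shARID1A TRIM28 (5 of 13) and shARID1A SETDB1 (6 of 13), where 5 of its genes lie in the array. Outside the array it had 4 of 8 in shARID1A H3K9me3 and 4 of 8 in shCtrl ARID1A, and 1 of 8 in shARID1A SETDB1. The lowest shares were 0 of 9 for histidine in shARID1A H3K9me3 and in shARID1A TRIM28, 0 of 19 for glutamine in shARID1A SETDB1 and 1 of 11 for phenylalanine in shCtrl ARID1A. Over all tRNA genes the shares of these libraries were 41.5%, 17.8%, 9.03% and 30%, in that order. In shCtrl H3K9me3 the range was narrower, from 1 of 26 arginine genes to 2 of 8 initiator methionine genes. No serine, proline or tyrosine gene had a shARID1A SETDB1 peak, in 26, 20 and 13 genes. Outside the array only 4.05% of all tRNA genes had one, so 0 in these classes or in glutamine does not set them apart. In the unmodified lists no amino acid had more than 4 genes with a peak.

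**Figure D4:**
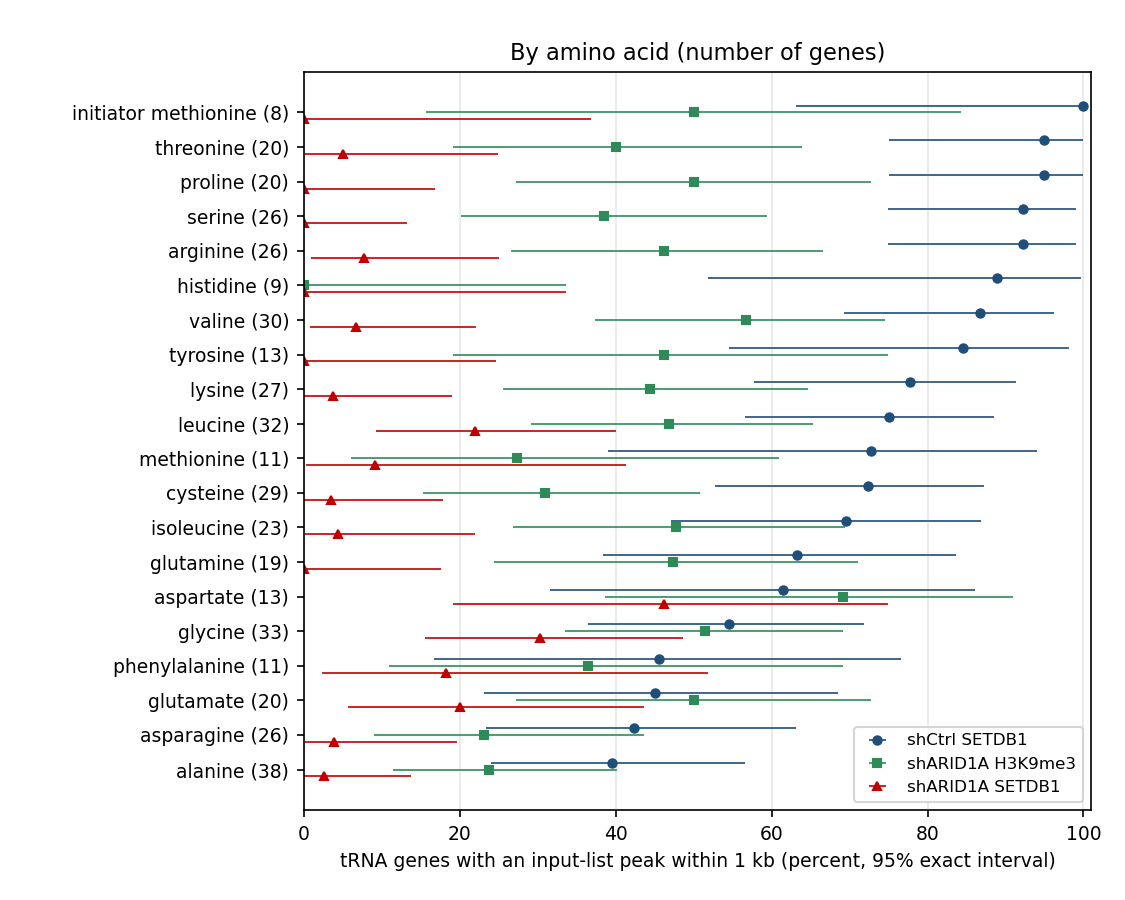
Percent of tRNA genes with an input-list peak within 1 kb by amino acid (number of genes in brackets), with 95% exact intervals, for shCtrl SETDB1, shARID1A H3K9me3 and shARID1A SETDB1. shCtrl SETDB1 runs from 39.5% for alanine to 100% for initiator methionine, and shARID1A SETDB1 is highest for aspartate, of which 5 of 13 genes lie in the array.

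The number in a symbol ranks the sequence variants of an anticodon, and higher numbers usually belong to copies that fit the tRNA fold less well. In shCtrl SETDB1 90 of 116 genes with number 1 had a peak (77.6%), 86 of 104 with number 2 (82.7%), 44 of 54 with number 3 (81.5%), 54 of 73 with 4 to 5 (74%) and 37 of 76 with 6 or more (48.7%). Of the 20 unnumbered genes, 14 of them on chromosome 1, 2 had one (10%).

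Summits of the highest peak per gene were placed relative to the tRNA gene. In shCtrl SETDB1 234 of 313 lay within 200 bp (74.8%, interval 69.6 to 79.5), against 24.7% for the other short genes with a peak, and 108 lay inside the gene body. The median distance from the gene was 19 bp. In shARID1A H3K9me3 109 of 184 lay within 200 bp (59.2% against 31.9%) and 41 inside the body, and in shCtrl ARID1A 61 of 133 (45.9% against 22%) and 9. In shCtrl ARID1A the median distance was 261 bp. shARID1A SETDB1 had 40% against 26.7% and shCtrl H3K9me3 34% against 22.4%, and both intervals (24.9 to 56.7 and 20.9 to 49.3) include the value of the short genes. In the IgG lists, which hold more of the genes, shARID1A SETDB1 had 40.7% (34.9 to 46.7) against 380 of 1632 short genes and shCtrl H3K9me3 38.2% (30.9 to 46) against 261 of 1250, and these intervals lie above the share of the short genes. The TRIM28 lists had 9.09% (unmodified), 10% (shCtrl) and 29.1% (shARID1A) in the input lists, against 21.3%, 23.7% and 21.9%. In the IgG list shARID1A TRIM28 had 41.8% (35.7 to 48.2) against 22.8%.

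**Figure D5:**
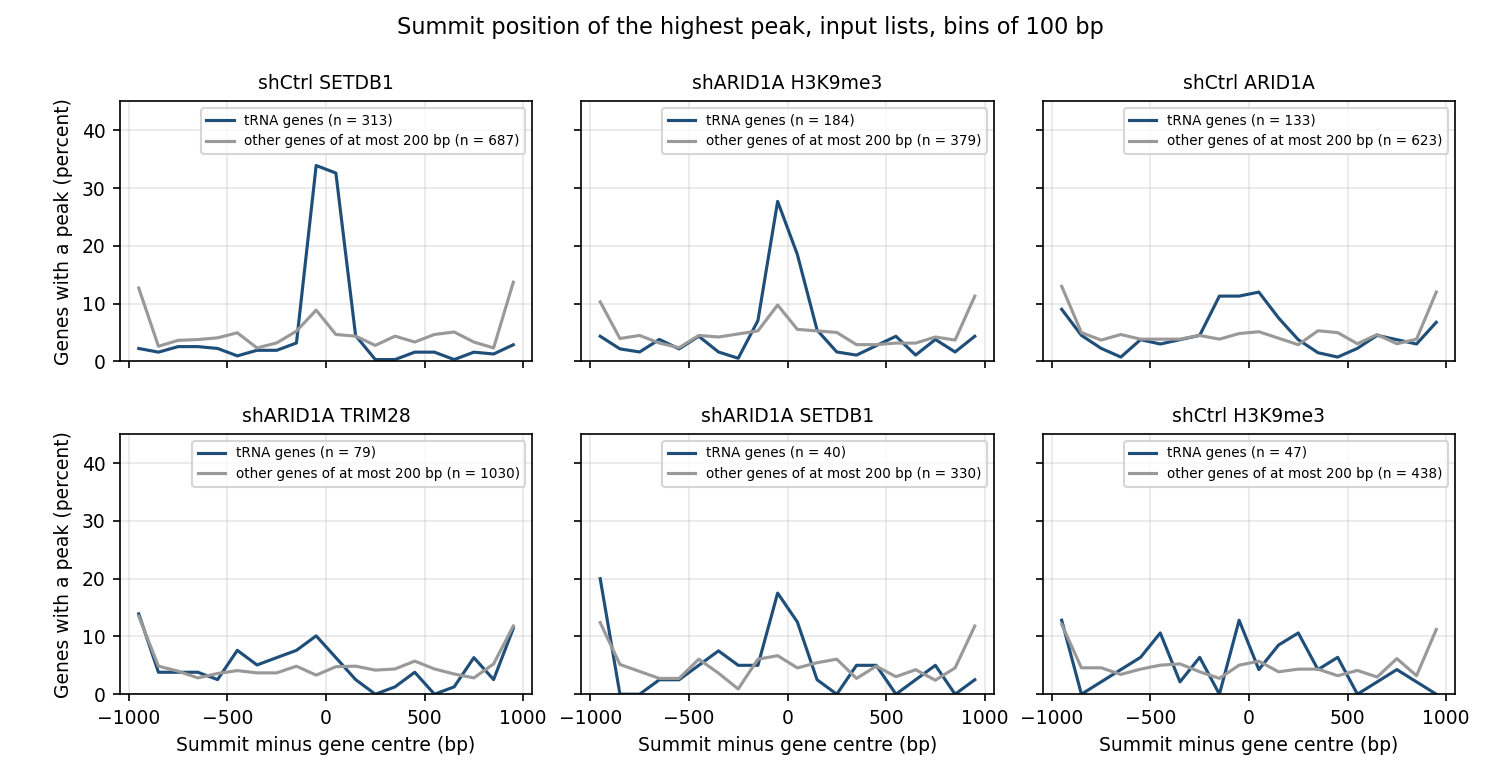
Signed distance from gene centre to the summit of the highest input-list peak, in bins of 100 bp, as percent of genes with a peak, for tRNA genes (blue) and other genes of at most 200 bp (grey) in 6 libraries, with summits beyond 1000 bp counted in the outermost bins. shCtrl SETDB1 and shARID1A H3K9me3 have a sharp maximum at the gene, and shARID1A TRIM28 is near the grey line.

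The genes of the RNA polymerase III machinery, 26 in a list of polymerase subunits, TFIIIA, TFIIIB and TFIIIC subunits, the repressor MAF1 and the RNA-binding protein gene SSB, were counted in the same way. In shCtrl SETDB1 19 of 26 had a peak (73.1% against 58.7% of all 19970 protein-coding genes), and 12 of them a strong one (43.5% of all). In shARID1A SETDB1 9 had one (34.6% against 43.7%), in shARID1A H3K9me3 12 (46.2% against 46.8%) and in shCtrl ARID1A 13 (50% against 52.4%). The highest values were 9.27-fold at POLR3E, a polymerase subunit gene, in shCtrl SETDB1, and 9.25-fold at MAF1 in shARID1A SETDB1, the only strong peak of the list in that library.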

How the data were processed

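The authors made the peak lists. Per the submitters' processing notes, the tools were MACS2 2.2.7.1, Bowtie2 2.2.5, FastQC 0.11.9, ChIPseeker and deepTools 3.5.1, on GRCh38 (hg38). Their options, duplicate handling and depth were not stated, so the number of peaks stands for precision. The control of each list was read from its name. The deposited fold enrichment of a peak is a ratio over local background, the deposited −log10 p and −log10 q come from the same call, and the deposited score was not used. q was 1 for 8.02% to 99.9% of the peaks of a list. The protocol and the sample characteristics name different antibody products against H3K9me3 and against TRIM28.

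tRNA genes were taken from the RefSeq table of GRCh38.p14 and extended by 1000 bp. An overlap of 1 bp counted. Main values use the input list at the authors' threshold. Intervals at 95% are exact (Clopper-Pearson) for shares, come from the discordant genes for differences between states, and follow Newcombe for differences between chromosomes. All cover counting error only, and genes in one locus share peaks. The overlap code was tested on simulated peaks against bedtools 2.31.1. Python 3.11.15, pandas 2.3.3, numpy 2.4.6 and scipy 1.17.1 were used.

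Named genes were the 3 of highest fold per input list, up to 4 lost and 4 gained per antibody (peaks in both control lists of one state and neither of the other), the 8 with peaks in most input lists, the 8 leading genes strong in at least 2 lists, and for each library the amino acids of at least 8 genes with the highest and lowest share. Genes with a printed sequence, the 1q23.3 array, its flanks and the blocks were chosen after their values were seen. The other genes of at most 200 bp include 83 tRNA pseudogenes. Members and lists were chosen with earlier results of these data known. Alternatives were the IgG list, strong peaks, the 10000 best peaks, both controls, narrower windows, a stricter overlap, loci, and genes with no other gene in the window.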

Additional observations from a re-analysis of the deposited data

Results flagged for a closer look

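The share of tRNA genes with an input-list peak differed between shARID1A and shCtrl cells in opposite directions for libraries labelled H3K9me3 and SETDB1. SETDB1 is an enzyme that deposits H3K9me3, but the overlaps given above do not settle these labels. For H3K9me3 the share was 30.9 points higher in shARID1A, and for SETDB1 the difference was -61.6 points. In the IgG lists the differences were 36.3 points for H3K9me3 and -11.1 points for SETDB1. The difference between the 2 antibodies was not tested, since each group holds 1 library, and the libraries of a state share their control.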

How the results depend on the processing

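Differences are in percentage points. Of 66 alternative values of the differences between states, 32 stayed within the counting interval and 34 left it. Apart from TRIM28, shCtrl minus unmodified, whose interval includes 0, none of the 34 changed sign. For H3K9me3, shARID1A minus shCtrl, the other values were 36.3 (IgG list), 17.8 (strong peaks), 12.6 (10000 best peaks), 26 (200 bp window), 23.9 (gene body), 25.1 (loci) and 50.8 (strong IgG peaks). For TRIM28 they were 35.4, 4.51, 5.19, 7.45 and 5.87 for the first 5 of these, and 8.57 without the array. For SETDB1 they were -11.1 (IgG list), -49 (10000 best), -55.8 (no other gene in the window), -53.5 (strong IgG peaks) and -70.5 (without the array). For ARID1A, shCtrl minus unmodified, they were 56.2 (IgG list), 2.71 (strong), 9.03 (10000 best), 18.1 (200 bp), 13.3 (gene body), 20.6 (loci), 28.1 (no other gene), 13.3 (strong IgG) and 20.5 (without the array). For H3K9me3, shCtrl minus unmodified, they were 35.9 (IgG list), 0.677 (strong), 0.677 (10000 best), 5.42 (200 bp), 2.71 (gene body) and 6.09 (strong IgG), and for TRIM28 12.2 (IgG list).

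For chromosomes 1 and 6 minus others, 5 of 70 values changed sign where the interval of the main value did not include 0. These were shCtrl ARID1A with the IgG list (-15.1) and shARID1A SETDB1 with the IgG list (-19.1), loci (-1.77), chromosome 6 alone (-3.85) and without the array (-3.18). Chromosome 1 alone gave 20.7 for shARID1A SETDB1, 16.3 for shARID1A TRIM28, -42.4 for shCtrl SETDB1 and -6.68 for shARID1A H3K9me3. Chromosome 6 alone gave -17.9 for shCtrl SETDB1 and -5.99 for shARID1A TRIM28. With no other gene in the window the values were 20.8 for shCtrl ARID1A, -19.1 for shCtrl SETDB1 and -6.09 for shARID1A H3K9me3. The IgG list gave -15.7 for shCtrl H3K9me3, -5.24 for shCtrl TRIM28 and -11.4 for shARID1A TRIM28. Strong peaks gave -8.14 for shARID1A H3K9me3, and shARID1A TRIM28 had -4.91 for loci and -5.45 without the array. The summit share of shARID1A TRIM28 was 41.8% in the IgG list. The causes were not tested.

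The strong IgG peaks and the set without the array were added after seeing the data. No paired analysis was possible because each group holds 1 library. Depth and the placement of reads from near-identical tRNA genes were not stated, lists differ in length between libraries, and the absence of a peak does not show the absence of the protein or mark.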
